A study of Mus musculus with 4 samples.

Results

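The coreceptors CD4 and CD8 and the transcription factors that decide which of them a maturing thymocyte keeps were compared between thymus of miR-181d transgenic mice and thymus of miR-181d knockin mice. The members were the probes of a bead array named for Cd4, Cd8a, Cd8b1, Zbtb7b, Runx1, Runx3, Gata3 or Tox. They came to 12 of 45281 probes and covered 7 of the 8 genes, since no probe carried the name of Zbtb7b. None of the 12 passed the test of a genotype difference (limma, adjusted over all probes).

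CD4 and CD8 bind MHC class II and class I molecules and carry the kinase LCK to the T cell receptor. Most thymocytes pass through a double-positive stage in which both coreceptors are made, and selected cells then keep CD4 and become helper cells or keep CD8 and become cytotoxic cells. ZBTB7B, also called ThPOK, holds cells in the CD4 lineage, RUNX3 silences Cd4 in the CD8 lineage, and GATA3 and TOX act earlier, in cells on the way to the CD4 lineage.

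RNA was from whole thymus of C57BL/6 mice, 2 samples of a line labelled miR-181d transgenic (Tg-8) and 2 of a line labelled miR-181d knockin, each read on 1 array of the same slide. The labels give neither the promoter of the transgene nor the build of the knockin allele, neither the age of the mice nor whether the samples of a genotype came from separate animals. No wild-type group was used here, and each value places one genotype against the other. A p-value sets that difference only against the spread between these samples, which limma moderates with that of all probes. In whole-organ RNA, fewer cells of a type and less RNA per cell cannot be told apart.

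The microRNA named in the labels of both lines shares its seed, the stretch that pairs with targets, with the rest of the miR-181 family. The mature sequences are shown because the lines are labelled by this microRNA, with seed bases 2 to 8 in capitals (RefSeq, GRCm38.p6).
miR-181a-5p: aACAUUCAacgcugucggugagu
miR-181b-5p: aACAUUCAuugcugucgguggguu
miR-181c-5p: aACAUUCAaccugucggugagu
miR-181d-5p: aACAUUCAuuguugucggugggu
All 4 carry the seed ACAUUCA. The miR-181d entry lies on the minus strand at chr8:84178759-84178781.

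The organ label was borne out by thymocyte genes. Of 6 defining thymus genes, Ptcra, Rag1, Cd3e, Lck and Psmb11 were above background on all 4 arrays, and Foxn1, the master regulator of thymic epithelium, was above it on none. Background limits of the arrays were 146.3 to 150.3 signal units, and 43.1% to 46.3% of probes exceeded them. Knockin replicate 2 stood apart in its sex-linked transcripts. Xist was at 129.5 against 4366 to 4570 on the other 3 arrays, and the Y-linked Ddx3y at 3519 against 484.4 to 553.7. The knockin samples thus came from different animals. Sex was not balanced between the genotypes, and its part in the differences was not tested. Neutrophil genes also differed by genotype. All 7 granulocyte markers had values below 0 (median log2 difference -1.17, transgenic minus knockin), and S100a8, S100a9 and Camp passed the test over all probes. Their part in the values below was not tested.

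Of the 12 member probes, 8 were above background on all 4 arrays and 4 on none. The 8 detected probes read Cd4, Cd8a, Cd8b1 (3 probes), Runx1, Gata3 and Tox. The 4 undetected probes, with signals of 122.6 to 140, were the second Cd4 probe, 2 of the 3 Cd8a probes and the only Runx3 probe. For these 4 no difference is given. A dim probe sets no bound on its transcript, since Cd4 and Cd8a were each detected on another probe. The level of Runx3 is thus not known from its only probe.

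**Figure D1:**
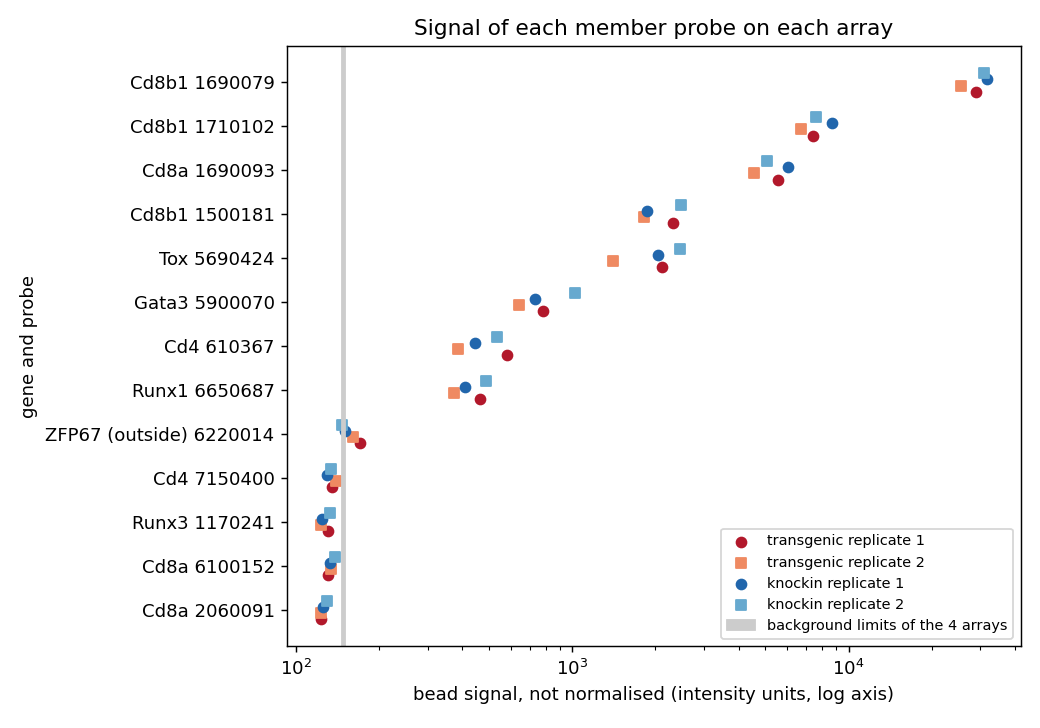
Signal of each of the 12 member probes, and of the ZFP67 probe outside the rule, on each of the 4 arrays, before normalisation, on a log axis. Points are single arrays and the grey band spans the background limits of the 4 arrays. Cd8b1 reached 25518 to 31745, whereas 4 member probes lay below the band on all arrays.

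Cd8b1, the beta chain of the CD8 heterodimer of thymocytes, was read by 3 detected probes. The signal of the brightest, probe 1690079, was 28882 and 25518 in transgenic thymus and 31745 and 30801 in knockin thymus. Raw signal was lower on both transgenic arrays, but after normalisation the groups overlapped. On the log2 scale the means were 14.76 ± 0.09 (SD, n = 2) and 14.88 ± 0.09 (SD, n = 2), a difference of -0.11 (SE 0.107, limma adjusted p = 0.9996). The 95% interval ran from -0.35 to 0.13, that is from 0.782-fold to 1.09-fold.

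The other Cd8b1 probes did not separate the genotypes either. Probe 1710102 read 7421 and 6718 in transgenic and 8745 and 7628 in knockin thymus, with knockin replicate 1 highest and the groups overlapping after normalisation (log2 difference -0.09, 95% interval -0.38 to 0.20). Probe 1500181 read 2311 and 1818 in transgenic and 1859 and 2475 in knockin thymus, with the groups overlapping (log2 difference 0.04, 95% interval -0.22 to 0.30). The 3 probes thus differed in sign as well as brightness. The log2 ratio of probe 1500181 to the brightest probe, centred on its mean over the 4 arrays, was -0.25 on knockin replicate 1 and 0.07 to 0.09 on the other 3.

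Cd8a, the alpha chain, was detected on a single probe, listed under the older name Lyt-2. It read 5530 and 4532 in transgenic and 6035 and 5065 in knockin thymus. In each genotype the first replicate was the brighter one, and the gap between replicates was larger than the gap between genotypes. The means were 12.33 ± 0.11 and 12.37 ± 0.29 on the log2 scale (SD, n = 2 each), a difference of -0.04 (SE 0.142, limma adjusted p = 0.9999, 95% interval -0.36 to 0.28). The sign depended on single arrays: without knockin replicate 1 the difference was 0.16, without transgenic replicate 2 it was 0.03, and without knockin replicate 2 it was -0.25. Both probes named Cd8a itself were below background on all 4 arrays, at 122.6 to 137.9.

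Cd4 was dimmer on its array probe, which says nothing of its abundance against Cd8, since probes differ in brightness. Its detected probe read 582.5 and 385.2 in transgenic and 444.3 and 532 in knockin thymus. The transgenic arrays were the highest and the lowest of the 4, with both knockin arrays between them. The means were 8.70 ± 0.31 and 8.67 ± 0.03 on the log2 scale (SD, n = 2 each), a difference of 0.03 (SE 0.142, limma adjusted p = 0.9999, 95% interval -0.29 to 0.35). Leaving out transgenic replicate 1 gave -0.20 and leaving out transgenic replicate 2 gave 0.26, so the sign was set by which transgenic array was kept.

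The balance of Cd4 to Cd8 within each array gave no separation of the genotypes. The log2 ratio of Cd4 to Cd8a, centred on its mean over the arrays, was 0.18 and -0.11 in transgenic and -0.27 and 0.19 in knockin thymus. The genotype means differed by 0.07, against gaps of 0.29 and 0.46 between the replicates of each genotype. The ratio of Cd4 to the brightest Cd8b1 probe was 0.23 and -0.09 in transgenic and -0.16 and 0.01 in knockin thymus, again overlapping. A ratio of this kind shows unequal change of the 2 probes on an array and not a ratio of cells.

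Tox, an HMG-box factor required for development of the CD4 lineage in mice, had the difference furthest from 0 among the detected probes. It read 2116 and 1409 in transgenic and 2035 and 2455 in knockin thymus. After normalisation both transgenic arrays lay below both knockin arrays, but transgenic replicate 1 was close to them and transgenic replicate 2 was far below. The means were 10.75 ± 0.28 and 11.03 ± 0.05 on the log2 scale (SD, n = 2 each), a difference of -0.28 (SE 0.135, limma adjusted p = 0.9996). The 95% interval was -0.59 to 0.02, or 0.666-fold to 1.01-fold. Without transgenic replicate 2 the difference was -0.09, and over the 4 fits that left out 1 array it ranged from -0.48 to -0.09.

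Gata3, a zinc-finger factor needed for CD4 cells, was second in order. Its probe read 782 and 639.3 in transgenic and 730.9 and 1023 in knockin thymus. Knockin replicate 2 was the highest, and the other 3 arrays lay close together after normalisation, with both transgenic arrays just below knockin replicate 1. The means were 9.37 ± 0.04 and 9.60 ± 0.19 on the log2 scale (SD, n = 2 each), a difference of -0.23 (SE 0.118, limma adjusted p = 0.9996, 95% interval -0.49 to 0.04). Without knockin replicate 2, the array with the male pattern, the difference was -0.09, and without knockin replicate 1 it was -0.37.

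Groups that do not overlap were common on these arrays. This held for 4 of the 12 member probes, Tox, Gata3, the undetected Cd4 probe and 1 undetected Cd8a probe, against 32.7% of all probes, though the order of signals below background carries no measurement. Among probes detected on all arrays it held for 2 of the 8 members against 30.8%. By the adjusted p, 0 of 12 member probes passed against 0.0795% of all probes, and at an unadjusted limma p under 0.05 the count was 0 of 12 against 4.63% of all probes. The detected members had a median difference of -0.07 against 0.001 over all 17867 detected probes, and a median size of 0.072 against 0.096.

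**Figure D2:**
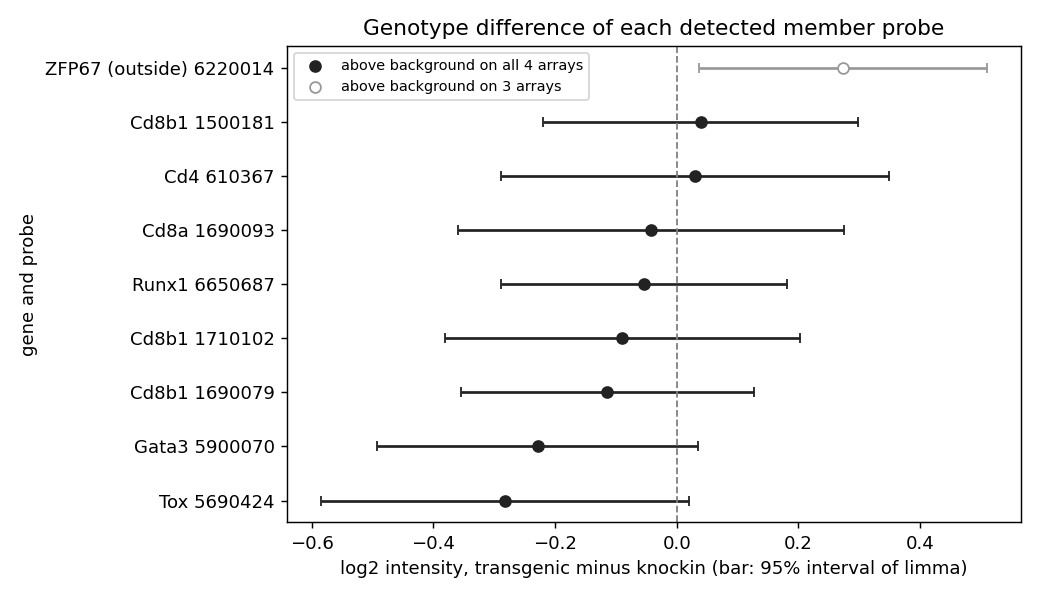
Log2 intensity in transgenic minus knockin thymus for the 8 detected member probes and the ZFP67 probe, with the 95% interval of limma as bars. Filled points were above background on all 4 arrays, and the open point on 3. The intervals of all 8 member probes include 0, with Tox at -0.28 and Gata3 at -0.23 furthest from it.

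Runx1, the core-binding factor subunit that represses Cd4 before the double-positive stage, was detected on its only probe. It read 462.8 and 371.9 in transgenic and 408.8 and 489 in knockin thymus, with the groups overlapping. The means were 8.48 ± 0.09 and 8.54 ± 0.04 on the log2 scale (SD, n = 2 each), a difference of -0.05 (SE 0.105, limma adjusted p = 0.9996, 95% interval -0.29 to 0.18). Its range over the 4 arrays, 0.15, was the smallest of the detected members. Runx3, its relative of the CD8 lineage, read 131 and 122.8 in transgenic and 124.3 and 132.5 in knockin thymus, below background throughout. Runx2, the remaining relative, was below background on all arrays too.

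One promoter window each of Runx1 and Runx3 shares a stretch of 18 bases with the other gene's, and the second window that the table lists for each gene holds neither this stretch nor its core motif. The stretch holds 2 copies of ACCACA, the core motif bound by RUNX proteins themselves. Both are shown because these 2 members have this feature in common outside the array values. The shared stretch is in capitals, each on its gene's strand (RefSeq, GRCm38.p6).
Runx1: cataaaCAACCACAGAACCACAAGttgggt
Runx3: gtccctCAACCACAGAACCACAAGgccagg
The Runx1 sequence is chr16:92826025-92826054 on the minus strand, and its shared stretch begins at base 27 of the transcript. The Runx3 sequence is chr4:135120503-135120532 on the plus strand, and its shared stretch begins 136 bases before the start. The comparison of these windows was chosen after they had been seen. Searched on both strands, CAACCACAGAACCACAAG stood in 4 of 32851 promoter windows of 300 bases (0.0122%), those of Runx1, Runx2, Runx3 and Gm16225. The motif ACCACA alone stood in 16.8% of windows, and in a window of 18.9% of genes, on either strand. Of the 5 members in the promoter table, Cd8a, Gata3, Zbtb7b, Runx1 and Runx3, it was found for the last 3, in 3 of the 8 windows of all 5. The windows of Gm16225 and Runx3 that hold the shared stretch both lie on chromosome 4, on opposite strands. Their matches may therefore be the same stretch, which was not checked. A match is a description of the letters, and the data here hold no binding.

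Zbtb7b itself could not be placed. A probe named ZFP67, an older name that the RefSeq gene table lists for both Zbtb7b and Zfp317, lies outside the rule and is not assigned to either gene here. It read 170.2 and 160.2 in transgenic and 150.9 and 147 in knockin thymus, close to the background limits, and was above them on 3 arrays. Both transgenic arrays were above both knockin arrays, with a log2 difference of 0.27 (SE 0.106, 95% interval 0.04 to 0.51, limma adjusted p = 0.9996).

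The 8 detected probes did not share 1 pattern over the arrays. Transgenic replicate 2 was lowest for 5 of the 8, against 28.2% of all detected probes, and was highest for none, against 28.7%. Knockin replicate 1 was highest for Cd8a and for 2 of the 3 Cd8b1 probes, and knockin replicate 2 was highest for Gata3, Tox and Runx1. Transgenic replicate 1 was highest for Cd4 and Cd8b1 probe 1500181. Of all detected probes, 22.6% were highest on knockin replicate 1, 24.6% on knockin replicate 2 and 24.1% on transgenic replicate 1.

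**Figure D3:**
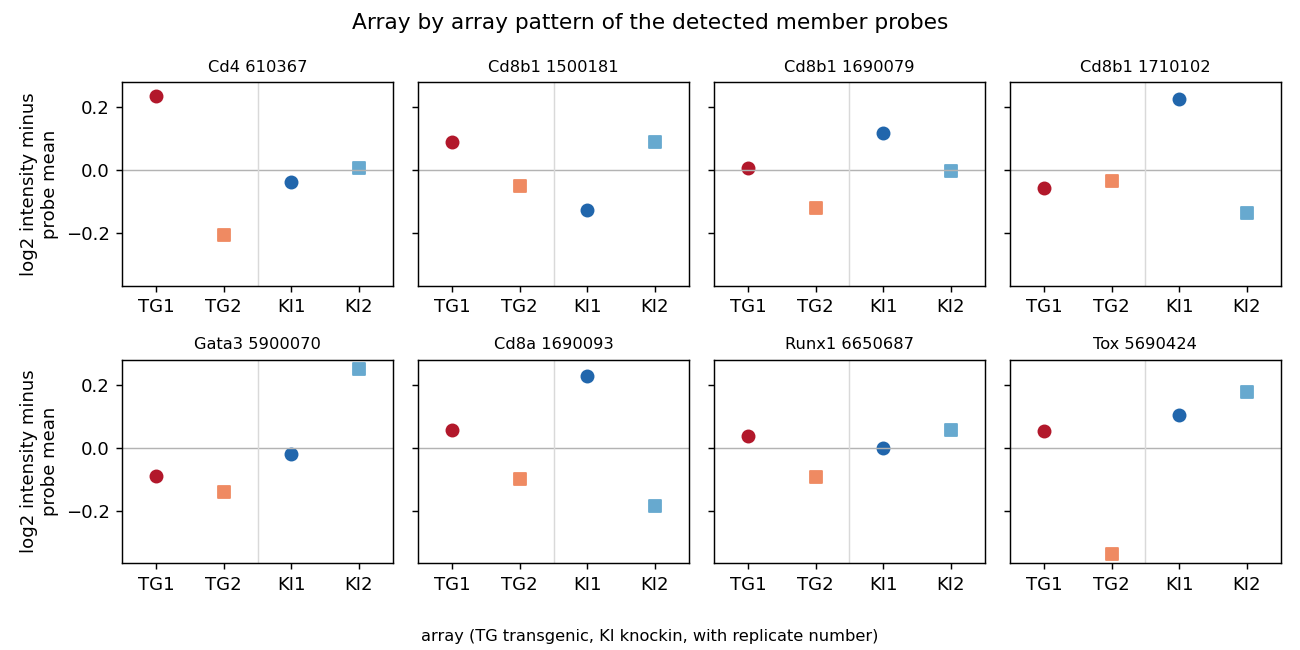
Log2 intensity of the 8 detected member probes on each array after subtracting the probe's mean over the 4 arrays. TG and KI mark transgenic and knockin arrays with their replicate number. Transgenic replicate 2 is the lowest array in 5 panels, and in 6 of the 8 panels the genotypes overlap.

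Genes with the most similar pattern over the 4 arrays were named by the smallest root mean square difference of centred log2 values among 10104 detected genes. For Cd4 they were Dhx37, Xpc and Ppp1r1a, at 0.014 to 0.015 against a median of 0.19 over all genes compared. For Cd8a they were Psg23, Ccdc88b and D130051D11Rik, at 0.017 to 0.021 against a median of 0.20. For Cd8b1 they were Nab2, Bcr and Spata5l1, at 0.003 to 0.010 against a median of 0.14. Patterns over 4 arrays coincide readily among so many genes.

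Genes around the choice of lineage were followed in 6 lists with 77 measured genes, of which none passed by limma, against 0.117% of all genes taken on their brightest probe. At an unadjusted limma p under 0.05 there were 12 of 77, 8 lower and 4 higher in transgenic thymus, against 5.33% of all genes. The lists were drawn up with earlier results of these data known, so the excess is no independent evidence.

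Regulators and partners of the members had a median difference of -0.08 over 29 measured genes, 23 of them below 0. Over all 19579 genes the median was 0.001, with 9709 below 0. Without transgenic replicate 2 the median of the regulators was 0.01. Cbfb, the subunit that RUNX proteins bind DNA with, read 7151 and 5851 in transgenic and 6437 and 7276 in knockin thymus and overlapped (log2 difference 0.03). Id2, an inhibitor of E proteins, read 986.5 and 849.7 in transgenic and 1124 and 1282 in knockin thymus, without overlap. Its log2 difference was -0.33 (SE 0.100, limma adjusted p = 0.803), and -0.30 on its second detected probe. Myb, a factor of immature thymocytes that acts upstream of Gata3, had -0.35 (SE 0.110, adjusted p = 0.833) on its brightest probe, but -0.17 and 0.10 on its other detected probes. Lef1, a partner of Tcf7 in CD4 cell development, had the lowest value of the list and was named, like Cbfb, after its values were seen. Its detected probes had -0.46 (SE 0.151, limma adjusted p = 0.885) and -0.36 (SE 0.119, limma adjusted p = 0.886). Transgenic replicate 2 was the lowest array on both.

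The coreceptors' kinase Lck read 18061 and 16019 in transgenic and 17281 and 18784 in knockin thymus, a log2 difference of -0.02. The list of this kinase, MHC ligands and near partners had a median of -0.11 over 10 genes, 7 of them below 0, against 9709 of all 19579. Without knockin replicate 2 that median was above 0, at 0.025, and without transgenic replicate 1 it was -0.22. H2-D1, a class I molecule that can present to CD8 cells, had the lowest value, -0.49 (SE 0.148, limma adjusted p = 0.803), with knockin replicate 2 far above the other arrays at 6579 against 3479 to 4272, and without that array the value was -0.26. Near-identical class I genes can share the signal of this probe. Csk, the kinase that holds LCK inactive, had -0.23 (SE 0.116, adjusted p = 0.9996), which became -0.11 without transgenic replicate 2 and -0.36 without transgenic replicate 1.

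Products of the mature lineages gave medians of -0.01 over 8 CD4-lineage genes and 0.12 over 13 CD8-lineage genes. The CD8-lineage median was 0.26 over the 7 genes above background on all arrays, and 0.049 over all 13 without transgenic replicate 1. The CD4-lineage median ranged from -0.11 to 0.087 with 1 array left out. Ctla4, an inhibitory receptor, had -0.32 (SE 0.116, limma adjusted p = 0.980). Tnfrsf18, a receptor abundant on regulatory T cells, had 0.29 and 0.35 on its 2 probes, with the first at 0.15 without transgenic replicate 2. Of the CD8-lineage genes 10 were above 0 and 3 below, against 9870 above and 9709 below of all 19579 genes. Of the 13, 4 were not above background on any array: Eomes, Gzma and Crtam, with values above 0, and Gzmb, below 0. The signs of these 4 carry no measurement. Gzmk and Tbx21, also above 0, were above background on 1 and 3 arrays. Klrd1, a receptor of natural killer and CD8 cells, read 522.2 and 582 in transgenic and 372.1 and 449.8 in knockin thymus, with both transgenic arrays higher (log2 difference 0.58, SE 0.142, adjusted p = 0.484), and 0.37 without transgenic replicate 2. Cd160, another receptor of such cells, had 0.44 (SE 0.143, adjusted p = 0.876), which became 0.22 without transgenic replicate 2 and 0.66 without transgenic replicate 1. Ccl5 of the same list went the other way, at -0.37 (SE 0.148, limma adjusted p = 0.9996), and was named after its values were seen. Its groups did not overlap after normalisation, but transgenic replicate 1 was close to knockin replicate 1, at 9.91 against 9.95 on the log2 scale.

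Markers of the stages before and after the choice gave small medians, -0.06 over 9 double-positive genes and -0.02 over 9 mature genes. No double-positive gene had an unadjusted limma p under 0.05, and Rag1, a recombinase subunit, and Arpp21 had -0.14 and 0.09. Itgb7, an integrin chain, had 0.50 (SE 0.111, limma adjusted p = 0.373) and Cd69, induced on selected cells, had -0.44 (SE 0.103, adjusted p = 0.449). A second, dim Cd69 probe, above background on the 2 transgenic arrays only, had the opposite sign, at 0.16. The double-positive median was 0.14 without knockin replicate 1, 0.03 without transgenic replicate 1 and -0.17 without knockin replicate 2, so single arrays set its sign.

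Markers of other cells that can carry CD4, CD8 or GATA3 were also read. Dendritic cell markers had a median of -0.03 over 5 genes, 2 of them above background on all arrays, with Itgax and Xcr1 on none. The log2 of the 5 genes' summed intensity was 9.10 and 9.33 in transgenic and 9.12 and 9.27 in knockin thymus. Such a sum is set mostly by the brightest genes of a list. Innate lymphoid markers had a median of 0.007 over 4 genes, 1 of them (Il17rb) above background on all arrays, with Ncr1 on none. Their log2 summed intensity was 10.17 and 10.10 in transgenic against 10.02 and 10.14 in knockin thymus, with Il17rb the brightest gene. Medians were -0.09 over 6 macrophage genes, -0.22 over 4 B cell genes, 0.06 over 6 epithelial genes and -0.12 over 6 fibroblast genes, and no gene of these lists passed. All 6 macrophage genes were above background on all arrays, but only 1 B cell, 4 epithelial and 4 fibroblast genes were. The log2 summed intensity of the 7 granulocyte genes was 11.97 and 11.74 in transgenic and 13.08 and 13.29 in knockin thymus, without overlap. The calls of S100a8, S100a9 and Camp were lost with median scaling and without background correction, at adjusted p of 0.115 to 0.200, while their log2 differences stayed at -1.44, -1.55 and -1.21 with median scaling and at -1.34, -1.38 and -0.98 without correction.

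**Figure D4:**
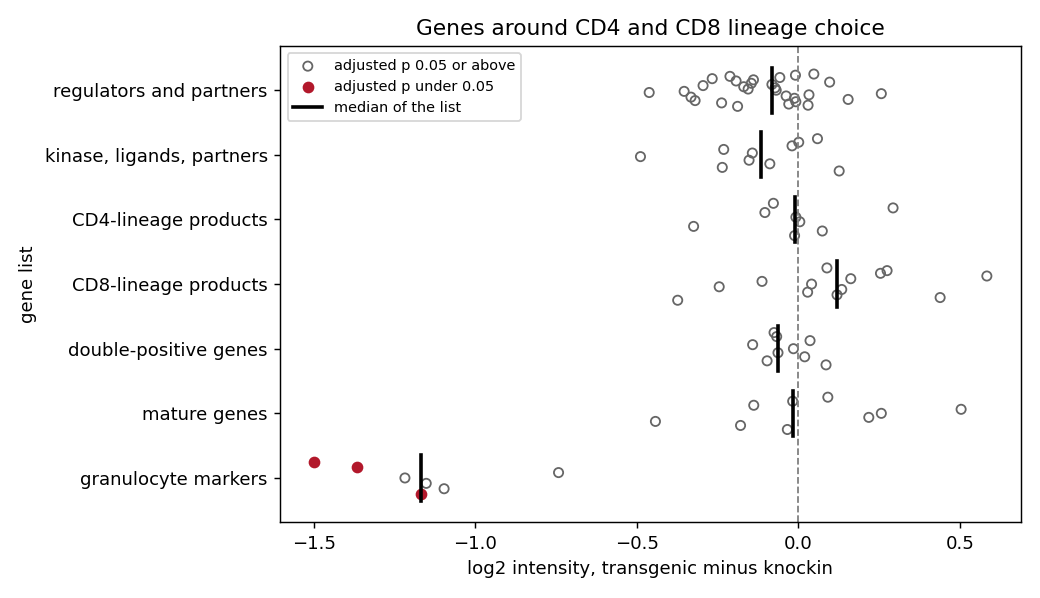
Log2 intensity in transgenic minus knockin thymus for the genes of the 6 lists around lineage choice and for granulocyte markers, 1 circle per gene on its brightest probe, with the list median as a bar. Filled circles passed the limma adjusted threshold of 0.05. The 3 that passed were granulocyte markers, at -1.50, -1.37 and -1.17.

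No member probe passed under any alternative processing. Among the detected probes, Tox, Gata3 and the brightest Cd8b1 probe kept a value below 0 in every alternative that was run. Cd4, Cd8a, Runx1 and the other Cd8b1 probes changed sign in at least 1.

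**Figure D5:**
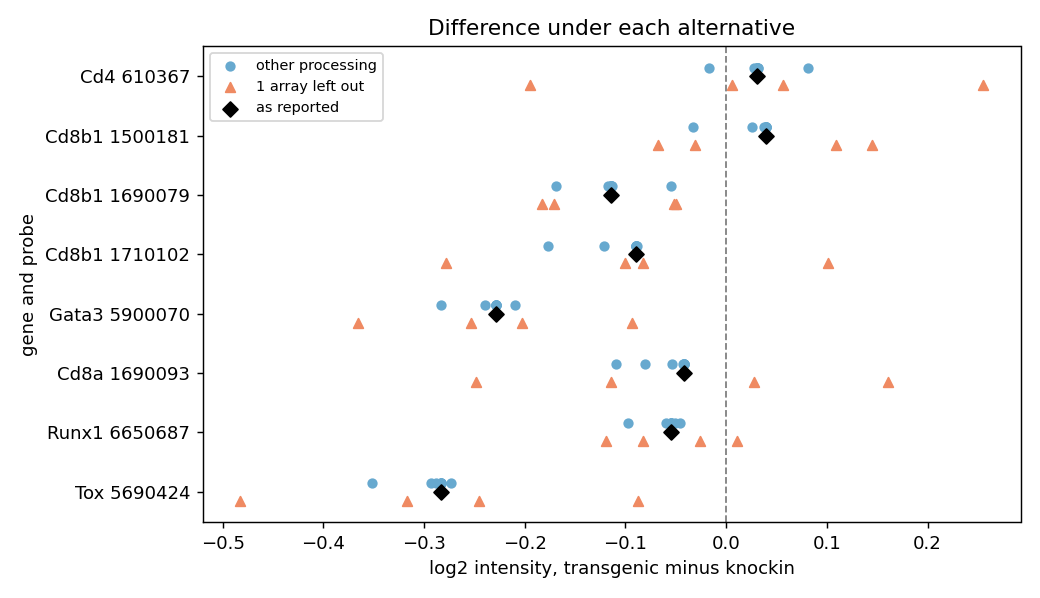
Log2 difference, transgenic minus knockin, of the 8 detected member probes as reported (diamonds), under other processing (circles) and with 1 array left out (triangles). Tox ranged from -0.48 to -0.09 and Gata3 from -0.37 to -0.09, while Cd4 ranged from -0.20 to 0.26.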

How the data were processed

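Total RNA of 2 transgenic and 2 knockin thymus samples was read on Illumina MouseWG-6 arrays, and groups came from the sample titles. The deposited scanner table holds, per the file headers, average bead signal intensity from GenomeStudio 1.9.0 with no normalization, and it carries no detection p-values or control probes. The authors' deposited value table holds processed intensity for which no source used here names the background step, the normalization or the scale (medians 1.753 to 1.809). Its probes are not paired with genes, so only a count was taken from it, on log2(value + 8).

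Signals were corrected with normexp (offset 50), taken to log2 and quantile normalized, and all 45281 probes were fitted with limma 3.58.1 in R 4.3.3, transgenic against knockin, two-sided. P-values were adjusted by the Benjamini-Hochberg method across the whole table, and 0.05 was the threshold. The offset understates differences of dim probes. Each array was given a background limit, 3 SDs (taken from the lower side) above its most common signal. Names were matched to RefSeq (GRCm38.p6) for 76.8% of probes, and the brightest probe stood for a gene in lists. On simulated arrays of the same 45281 probes with independent noise the fit called 24% of simulated 1.25-fold changes, 94% at 1.5-fold, and 100% at 2-fold and at 4-fold, and made 6 false calls. On the real arrays Ngp, Lcn2 and Ltf were 2.32-fold, 2.14-fold and 2.22-fold lower in transgenic thymus and did not pass. S100a8, S100a9 and Camp, at 2.58-fold, 2.83-fold and 2.24-fold lower, passed. The simulated shares can thus overstate what the fit finds on real arrays. Precision is limited by having 2 arrays per genotype.

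All member probes are named. Of each list, the rule named genes that passed plus the 2 detected genes with the smallest p, and the text prints examples. Members, lists and rules were chosen with earlier results of these data known. Other settings tried were the replicate number as a block, cyclic loess, median scaling, an offset of 16, uncorrected signals, a trend with robust priors, a filter on dim probes, the mean of a gene's probes and leaving out each array. The crossed block and the authors' table were added after seeing the data. Tox2 was not measured. Same-numbered arrays did not deviate together (correlation -0.36 over detected probes).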

Additional observations from a re-analysis of the deposited data

How the results depend on the processing

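The count of member probes that passed was 0 in the reported fit, in every alternative and with the replicate number as a block. The block left all member values in place. Over all probes the count was 36 as reported, 38 with the replicate block, 2 with median scaling, 3 without background correction, 70 with an offset of 16, 112 with a variance trend on intensity (robust priors), and 57 among probes above background on at least 2 arrays. With 1 array left out it was 24 to 88. Because the deviations of same-numbered arrays were negatively correlated, a crossed pairing was also used as a block, after seeing the data, and called 364 probes. In the authors' deposited values no probe (0) passed by limma, with 3299 at an unadjusted p under 0.05. Among 116 genes of the lists 3 passed as reported, 0 with median scaling, 0 without background correction, 7 with an offset of 16, 6 with the trend, 5 with the filter, 13 with the crossed block and 3 to 7 with 1 array left out. Under the crossed block Itgb7, Klrd1, Cd69 and H2-D1 passed. That pairing was taken from these same values and no label gives it, so its calls are no evidence of a difference. The cause of the shifts in count was not tested.

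Signs of small differences were unstable. With median scaling Cd4 was at -0.017 and Cd8b1 probe 1500181 at -0.033. With 1 array left out, values ranged from -0.20 to 0.26 for Cd4, from -0.25 to 0.16 for Cd8a, from -0.068 to 0.14 and -0.28 to 0.10 for Cd8b1 probes 1500181 and 1710102, and from -0.12 to 0.011 for Runx1. They ranged from -0.020 to 0.19 for Arpp21, from -0.67 to 0.081 for Cd68, from -0.44 to 0.16 for Dcn, from -0.0051 to 0.16 for Il17rb, from -0.41 to 0.016 for Lum, from -0.038 to 0.28 for Psmb11 and from -0.065 to 0.48 for Siglech. Of 99 values of the detected member probes under alternatives 90 kept their direction and side of the threshold, and 9 reversed. The blocks, the trend and the filter leave the difference itself unchanged, so their values could not reverse. The count of 90 includes these and thus overstates how stable the signs were. Runx3 and the dim Cd4 and Cd8a probes were below background on every array, so their differences were not followed.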
